A study of Mus musculus with 4 samples.

Results

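Natural killer (NK) cells of mouse lung tumours were picked out of single-cell RNA libraries by their receptor genes. A barcode was counted as an NK cell when it held at least 2 unique molecular identifiers (UMIs, each marking 1 captured RNA molecule) summed over Ncr1, Klrb1c, Klre1 and Klra8. It also had to hold 0 UMIs of the T-cell genes Cd3e, Cd3g and Trac, of the B-cell gene Cd79a and of the myeloid gene Lyz2, with 300 or more genes seen and no more than 15% of UMIs from mitochondrial genes. Applied to the lung tumours, the rule found 136 of 21090 kept cells there, while all 4 libraries of the series held 55695 kept cells. Of the 136, 33 came from the library labelled RPR2 and 103 from the library labelled CRPR2. The cells were chosen by these measured UMIs, so the levels of the genes in the rule are given as a description only.

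Both libraries came from mice with small cell lung cancer caused by gene deletion, and lung is the labelled tissue. The labels do not spell out the names; in published use RPR2 stands for deletion of Rb1, Trp53 and Rbl2, and CRPR2 adds deletion of Cracd, which regulates actin capping. The labels of these samples do not state strain, sex, age, the cells in which the genes were deleted, the number of animals behind a library or any treatment. Tumours were digested with enzymes, freed of red cells and of dead cells, and loaded on 10x Genomics 3′ chemistry. Each group held 1 library, which leaves the spread between animals unmeasured and allows no test. All 95% intervals below cover counting error within a library, and differences between animals, dissections and genotypes cannot be told apart.

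NK cells are innate lymphocytes that kill stressed, infected or transformed cells without rearranged antigen receptors. Germline-encoded activating and inhibitory receptors, many of them in the NK gene complex, are balanced against ligands and MHC class I on the target cell, and the signal passes through adaptors such as Tyrobp and Fcer1g. Killing is done by perforin and granzymes, and NK cells also secrete interferon gamma and chemokines. Mouse NK cells are commonly ordered from an immature, Cd27-expressing stage to a mature stage marked by Itgam, Klrg1, S1pr5 and Zeb2.

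Ncr1, the activating receptor NKp46, lies on chromosome 7 from 4337724 to 4345164 in build GRCm38. The other genes of the rule lie in the NK gene complex on chromosome 6: Klrb1c, the NK1.1 antigen of some strains, from 128778485 to 128789215, Klre1 from 129577905 to 129585827 and Klra8, an activating Ly49 receptor, from 130115226 to 130129898. The Klr genes of that complex described here, 16 in all, span 128609227 to 130386874, or 1.78 Mb. Ly49 genes are close copies of each other and differ between strains, so UMIs of one can come from another. The last 60 coding bases before the stop codon are shown for 6 Klra genes, read 5′ to 3′ on the minus strand from the GENCODE vM21 transcripts, because these ends lie nearest to the part that 3′ chemistry reads. Capitals mark bases that differ from Klra8.
Klra8: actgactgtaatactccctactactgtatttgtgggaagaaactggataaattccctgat
Klra9: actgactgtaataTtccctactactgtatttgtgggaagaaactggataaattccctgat
Klra3: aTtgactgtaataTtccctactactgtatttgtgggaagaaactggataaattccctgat
Klra4: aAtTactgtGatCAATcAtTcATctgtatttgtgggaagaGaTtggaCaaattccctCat
Klra7: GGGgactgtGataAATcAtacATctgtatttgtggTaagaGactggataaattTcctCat
Klra1: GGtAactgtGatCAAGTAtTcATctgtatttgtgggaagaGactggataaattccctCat

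On chromosome 6 these stretches lie at 130115539 to 130115598 for Klra8, 130178993 to 130179052 for Klra9, 130323607 to 130323666 for Klra3, 130044042 to 130044101 for Klra4, 130218903 to 130218962 for Klra7 and 130364223 to 130364282 for Klra1. Klra9 differed from Klra8 at 1 base and Klra3 at 2 bases, whereas Klra7 differed at 14 and Klra4 and Klra1 at 15 each. Over the last 500 bases of the Klra8 transcript, 5.44% of windows of 60 bases were also found whole in another of these Klra genes. For Klra9 that share was 20.9% and for Klra3 18.6%. The values of Klra8, Klra9 and Klra3 are therefore uncertain to the extent that a strain carries other copies, which was not tested.

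The lung libraries held 9215 and 12164 barcodes with 42592323 and 61917754 UMIs in RPR2 and CRPR2, and medians of 2873 and 3300.5 UMIs. Filtering removed 87 and 202 barcodes. In tumour cells, Cracd, listed as C530008M17Rik, stood at 31.6 and 21.5 CPM (counts of a gene scaled to a total of 1e+06 UMIs), a ratio of 0.680 (0.612 to 0.756), and NK cells held 0 and 3 of its UMIs. The female-specific RNA Xist was seen in 21 of 33 NK cells of RPR2 and in 0 of 103 of CRPR2, and the Y-linked gene Ddx3y in 0 and 12 cells, so sex and genotype cannot be told apart here. The lung libraries shared 36 barcode sequences, none of them an NK cell in either.

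NK cells carried little RNA, with medians of 1784 UMIs (835 to 19520) in RPR2 and 1701 (574 to 12248) in CRPR2, over medians of 838 and 833 genes. Mitochondrial shares were alike, with medians of 2.22% and 2.25%. Of the genes in the rule, Ncr1 was seen in 24 of 33 cells of RPR2 and 79 of 103 of CRPR2, Klrb1c in 24 and 67, Klre1 in 23 and 74, and Klra8 in 17 and 48. Most cells held more than one of these genes: 29 of 33 and 99 of 103 cells held at least 2 of the 4. The median cell had 6 UMIs of the 4 genes in RPR2 and 4 in CRPR2, and the highest had 16 in both.

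At the threshold itself, 4 cells of RPR2 and 16 of CRPR2 held exactly 2 UMIs of these genes, and 75% of them carried Gzma (granzyme A) RNA in each library. Just outside it, with 1 UMI, stood 4 and 22 cells, of which 0% and 50% carried Gzma. Tumour RNA, at 5 or more UMIs over 10 neuroendocrine genes, was in 0% and 37.5% of the cells just inside and in 50% and 40.9% of those just outside. Before the exclusions 61 and 120 barcodes had passed the 2-UMI threshold, and the exclusion that met most of them was Cd3g, in 23 barcodes of RPR2 and 10 of CRPR2.

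Genes outside the rule also marked these cells as NK cells. Eomes, a transcription factor of conventional NK cells, was seen in 14 of 33 cells of RPR2 (42.4%, exact interval 25.5 to 60.8) and in 31 of 103 of CRPR2 (30.1%, 21.5 to 39.9), against 0% of B cells in both. Its level was 189 and 170 CPM, a ratio of CRPR2 over RPR2 of 0.898 (0.509 to 1.65). Tbx21, its partner T-bet, was seen in 9 and 19 cells, and 20 and 46 cells held a UMI of either factor. After thinning each cell to 1000 UMIs, which left out 1 and 3 shallower cells, Eomes was seen in 31.2% and 18.0% of cells. The B cells used as background numbered 447 and 991, with medians of 2463 and 1554 UMIs.

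Most cells held RNA of the adaptor Fcer1g and of other signalling and effector genes. Fcer1g was seen in 33 of 33 and 99 of 103 cells, Tyrobp in 32 and 100, Nkg7, a granule membrane protein, in 30 and 94, and Ccl5, a chemokine, in 32 and 94. Gzma was seen in 31 and 89 cells and Prf1, which encodes perforin, in 26 and 74. Klrk1, the activating receptor NKG2D, was seen in 87.9% and 78.6% of cells and Klrd1, the CD94 chain of NKG2 receptors, in 75.8% and 65.0%.

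**Figure D1:**
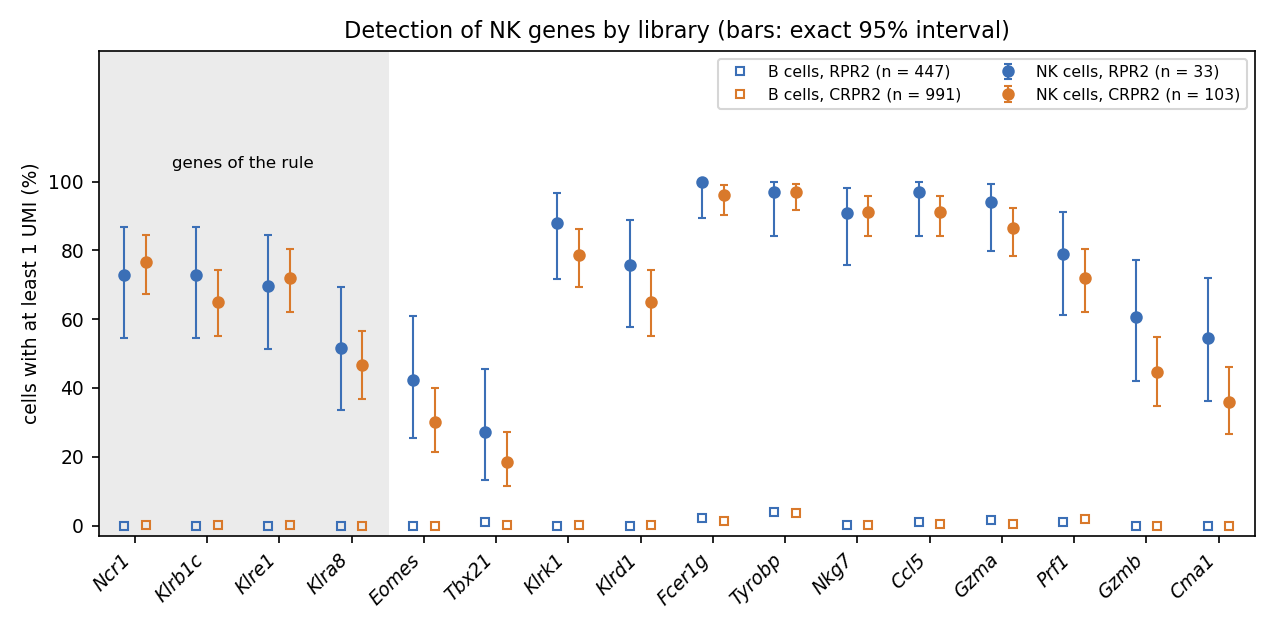
Percentage of cells with at least 1 UMI (vertical axis) of 16 genes in NK cells (filled circles, bars exact 95% intervals) and B cells (open squares) of RPR2 in blue and CRPR2 in orange; the grey field holds the 4 genes that chose the cells. All 4 squares of Eomes and Gzmb lie at or near 0%, whereas Fcer1g and Tyrobp were in nearly every NK cell of both libraries.

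Markers of other lymphocytes were low. The T-cell list summed to 726 CPM in NK cells of RPR2 and 607 in CRPR2, against 4377 and 2614 in effector-memory T cells. Of its 17 genes 8 were at 0 in each library, and Cd4, Cd8b1, Cd5, Cd6 and Themis were at 0 in both. The T-cell gene Cd3d, which the rule did not exclude, had 4 UMIs in RPR2 and 2 in CRPR2. Also requiring 0 UMIs of Cd3d, Cd4, Cd8a, Cd8b1 and Cd5 left 30 NK cells in RPR2 and 101 in CRPR2. Some cells of both libraries thus held RNA of these genes. Of the 69 and 157 UMIs of the list, most were of Trbc1 (24 and 72 UMIs) and Trbc2 (14 and 24 UMIs). NK cells are known to make transcripts of unrearranged T-cell receptor loci, but whether these UMIs came from such transcripts was not tested. Of the list for type 1 innate lymphoid cells, close relatives of NK cells, Itga1 and Cd200r1 were at 0 in both libraries, Cxcr6 had 0 and 1 UMIs and Il7r 2 and 2. That list summed to 516 and 298 CPM, or 304 and 181 without mixed cells, against 2512 and 2299 in effector-memory T cells. Those T cells were chosen in part by Cxcr6, a member of the list, so the choice itself raised their sum. Most UMIs of the list in NK cells came from Tmem176a (15 and 25) and Tmem176b (17 and 29). Tmem176a stood at 158 and 96.7 CPM in all NK cells, and at 0 and 53.5 CPM without mixed cells. Of the lists for the other innate lymphoid cells, Il1rl1, Il13, Il5, Il22, Il17a, Il23r and Ccr6 were at 0 in both.

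Some NK barcodes also held RNA of other cell types. With a definition chosen after the values were seen, a cell was called mixed when it had 5 or more UMIs over the 10 tumour genes, 10 or more of the club-cell genes Scgb1a1 and Scgb3a2, or 10 or more of the plasma-cell genes Igkc and Jchain. This held for 2 of 33 cells of RPR2 and 17 of 103 of CRPR2. Mixed cells were deep, with medians of 14577 and 5093 UMIs against 1762 and 1554.5 in the others. Of the Scgb1a1 UMIs, 2188 of 2196 in RPR2 and 3008 of 3099 in CRPR2 were in mixed cells, and 380 of 411 Igkc UMIs of CRPR2 were in 1 cell. The tumour list summed to 2094 and 3535 CPM in all NK cells and to 106 and 100 CPM without the mixed ones, against 10723 and 14167 in tumour cells. Many of the list medians and single values below are also given without mixed cells.

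NK cells made up a larger share of the CRPR2 library. They were 33 of 9128 kept cells in RPR2 (0.362%, exact interval 0.249 to 0.507) and 103 of 11962 in CRPR2 (0.861%, 0.703 to 1.04), a ratio of 2.38 (1.61 to 3.52). Among cells with a UMI of Ptprc, the leukocyte antigen CD45, and none of the thymocyte genes Rag1, Rag2, Dntt and Ptcra, they were 31 of 1832 (1.69%, 1.15 to 2.39) and 88 of 1731 (5.08%, 4.10 to 6.23), a ratio of 3.00 (2.01 to 4.5). Without mixed cells the ratio over all kept cells was 2.12. Dissociation, dead-cell removal and the gate itself can set such shares.

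The size of the difference depended on the cells it was set against. Per 100 mature T cells there were 2.34 NK cells in RPR2 and 13.3 in CRPR2, a ratio of 5.69 (3.81 to 8.70). The list of thymocyte genes still summed to 99.5 CPM in these T cells of RPR2 and to 10.6 in CRPR2. Thymocyte-like cells may thus remain among them in RPR2. Their part in this ratio and in that among Ptprc-expressing cells was not tested. Per 100 effector-memory T cells there were 14.7 and 33.8, a ratio of 2.29 (1.54 to 3.5). Against B cells the values were 7.38 and 10.4 per 100, a ratio of 1.41 (0.944 to 2.15), and against myeloid cells 17.6 and 24.9, a ratio of 1.42 (0.949 to 2.17), and both of these intervals include 1.

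**Figure D2:**
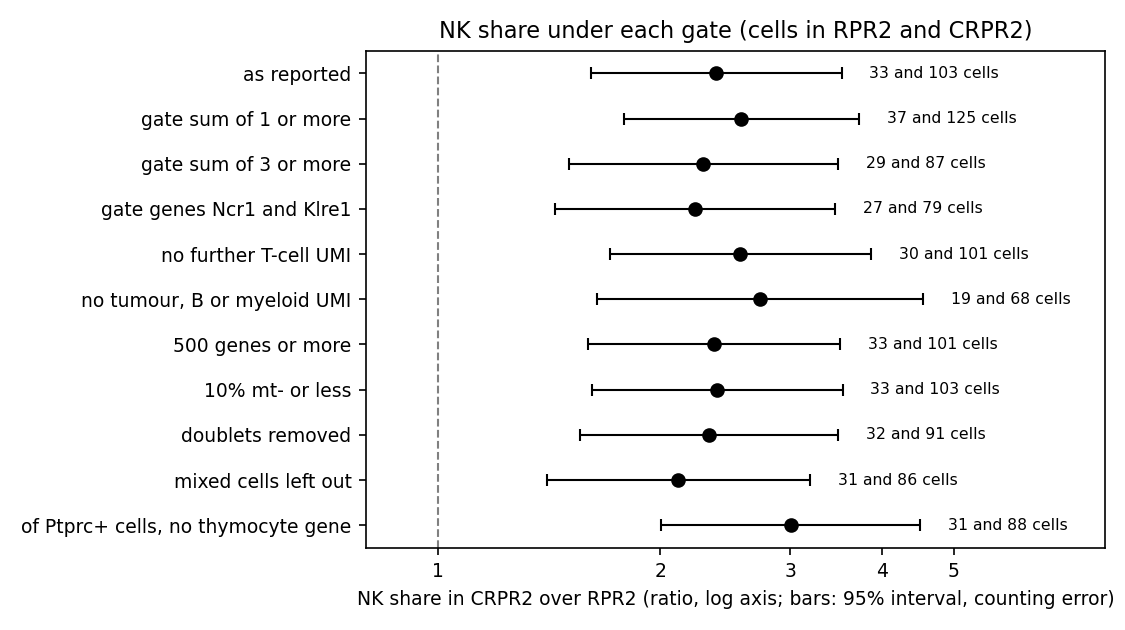
Ratio of the NK share in CRPR2 over RPR2 (horizontal log axis, bars 95% intervals for counting error) as reported and under 10 other gates, filters or denominators (rows), with the number of NK cells in RPR2 and CRPR2 beside each point. The ratios per T, B or myeloid cell are not drawn. The points lie between 2.12 and 3.00 and the dashed line marks a ratio of 1.

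Over all genes, 1755 had at least 30 UMIs in the NK cells of both libraries together. Of these, 126 (7.18%) were higher in CRPR2 by a factor of 2 or more and 34 (1.94%) lower by as much. Without mixed cells 930 genes could be counted, of which 39 (4.19%) were higher and 18 (1.94%) lower; 18 of the higher and 9 of the lower genes were called both ways. The lists below count members with at least 10 UMIs. Of all 4917 genes at that minimum, 762 (15.5%) were higher in CRPR2 by a factor of 2 or more and 335 (6.81%) lower, with a median log2 ratio of 0.07. Without mixed cells 2893 genes reached it, of which 326 (11.3%) were higher and 223 (7.71%) lower.

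Genes of mature NK cells were lower in CRPR2. All 12 measured members of the 13-gene list of mature NK genes had a ratio below 1, with a median log2 ratio of -0.67. The counting interval of 6 of the 12 lay below 1, against 149 of the 4917 genes in all. These counts are not at like depth, since an interval excludes 1 more readily in a gene with many UMIs. At least 60 UMIs were held by 6 of the 12 members and by 785 of the 4917 genes. The list gave a median of -0.56 without mixed cells, where 11 of 12 were below 1. Zeb2, a transcription factor of terminal maturation, was seen in 24 of 33 and 40 of 103 cells and stood at 474 and 228 CPM, a ratio of 0.482 (0.321 to 0.727). It was the only member at least 2-fold lower in all NK cells. Without mixed cells its ratio was 0.533 (0.349 to 0.818) and no member was 2-fold lower. Thinned to equal depth, Zeb2 was in 56.2% and 24.0% of NK cells and in 5.87% and 5.15% of B cells.

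The other members of the mature list leaned the same way by less. Ly6c2, a surface antigen of mature lymphocytes, stood at 1358 and 777 CPM, a ratio of 0.573 (0.457 to 0.720). Cma1, a chymase gene, stood at 379 and 232 CPM, a ratio of 0.613 (0.399 to 0.953), and was seen in 18 and 37 cells. Klrg1, an inhibitory receptor of terminally mature cells, stood at 179 and 96.7 CPM, a ratio of 0.541 whose interval (0.281 to 1.07) includes 1. S1pr5, a receptor for leaving bone marrow and lymph nodes, stood at 84.2 and 77.4 CPM, Itgam, the CD11b integrin, at 126 and 96.7, and Cx3cr1, a chemokine receptor, at 105 and 65.8.

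Several killing genes were lower in CRPR2, while still abundant. Gzma, Prf1 and Gzmb were also counted in the list of mature NK genes, so their values are not separate from its median. Gzma, on chromosome 13 from 113093825 to 113100981, stood at 10345 CPM (983 UMIs) in RPR2 and 7299 CPM (1887 UMIs) in CRPR2, a ratio of 0.706 (0.653 to 0.763). Per 1000 UMIs of a cell, its lowest, median and highest values were 0, 16.7 and 34.7 in RPR2 and 0, 7.5 and 37.6 in CRPR2, so the ranges overlapped almost wholly. Without mixed cells the medians were 16.9 and 11.4. Prf1, on chromosome 10 from 61297833 to 61304680, stood at 1084 and 650 CPM, a ratio of 0.599 (0.466 to 0.774), and Gzmb, granzyme B, at 631 and 395, a ratio of 0.625 (0.450 to 0.874). Nkg7 had a ratio of 0.730 (0.624 to 0.857) and Ccl5 of 0.729 (0.678 to 0.783).

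The granule list held 16 measured members of 22, of which 2 were above and 14 below a ratio of 1 and 2 at least 2-fold lower. Its median log2 ratio was -0.39 (-0.19 without mixed cells), and its sum 17902 and 12714 CPM. One of the 2 was Gzmc, granzyme C, whose 19 UMIs in RPR2 were all in 1 cell, against 0 in CRPR2. The other was Unc13d, needed for granule release, with 6 and 5 UMIs, a ratio of 0.306 whose interval (0.0739 to 1.20) includes 1.

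Genes of immature NK cells were mixed in direction. Of the 13-gene list 10 were measured, 7 above and 3 below a ratio of 1, with a median log2 ratio of 0.45 (0.76 without mixed cells, where 8 of 9 were above 1). The median turned to -0.19 when 1 UMI of the NK genes sufficed and to -0.12 over members with at least 60 UMIs. Ctla2a, an inhibitor of cysteine proteases on chromosome 13 from 60934155 to 60936625, was seen in 13 of 33 cells of RPR2 and 70 of 103 of CRPR2 and stood at 505 and 1184 CPM, a ratio of 2.34 (1.72 to 3.25), or 3.04 (2.13 to 4.44) without mixed cells. Thinned, Ctla2a was in 25.0% (11.5 to 43.4) and 59.0% (48.7 to 68.7) of NK cells and in 0% and 0.107% of B cells. It was also in 42.3% and 41.6% of thinned effector-memory T cells, so it was not particular to NK cells. In effector-memory T cells its ratio was 0.748.

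Cd27, a costimulatory receptor and stage marker, was seen in 1 cell of RPR2 and 14 of CRPR2, with 1 and 17 UMIs and a ratio of 6.25 whose interval (0.979 to 261) includes 1. Xcl1, a chemokine that draws dendritic cells, was seen in 7 and 52 cells, although its summed level of 526 and 646 CPM gave a ratio of 1.23 (0.890 to 1.72), or 1.70 (1.19 to 2.47) without mixed cells. Ltb, lymphotoxin beta, went the other way, at 421 and 128 CPM, a ratio of 0.303 (0.185 to 0.493). That value rested on few cells, since 20 of its 40 UMIs in RPR2 were in 1 cell and Ltb was seen in 7 and 21 cells; without the cell with most UMIs in each library the ratio was 0.533.

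**Figure D3:**
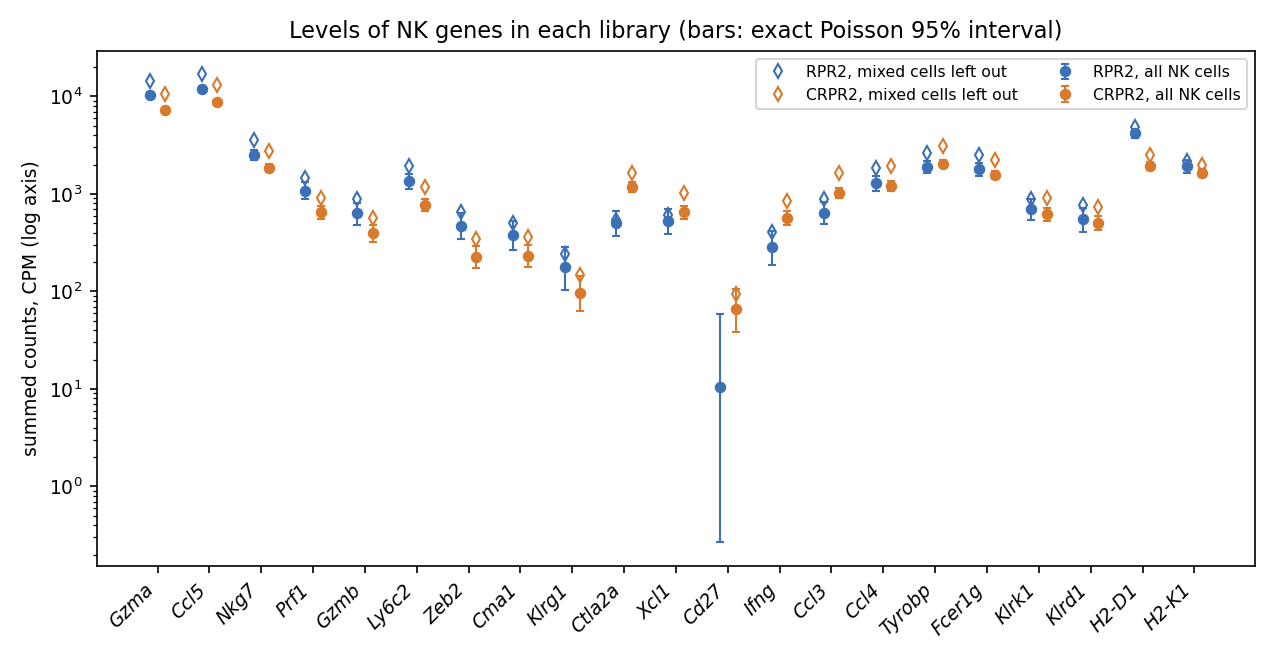
Summed level of 21 genes in NK cells (vertical log axis, CPM) in RPR2 (blue) and CRPR2 (orange), filled circles for all NK cells with exact Poisson 95% intervals and open diamonds with mixed cells left out; a diamond is missing where no UMI was counted. Zeb2, Ly6c2, Prf1 and H2-D1 lie lower in CRPR2, Ctla2a, Ifng and Ccl3 higher, and Tyrobp, Fcer1g, Klrk1 and Klrd1 close together.

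Counted per cell, fewer NK cells of CRPR2 carried RNA of mature genes. A class was cut at 1 UMI of Itgam, Klrg1, S1pr5, Zeb2, Cx3cr1 or Cma1, chosen after the values were seen, so the class is a range and not a cell type. It took in 29 of 33 cells of RPR2 (87.9%, 71.8 to 96.6) and 68 of 103 of CRPR2 (66.0%, 56.0 to 75.1). Near the cut, 3 and 19 cells held exactly 1 such UMI, and 26 and 49 held 2 or more. Thinned to 1000 UMIs the shares were 75.0% (56.6 to 88.5) and 53.0% (42.8 to 63.1), and the intervals overlap. A UMI of the immature list was in 21 of 33 and 88 of 103 cells, or 46.9% (29.1 to 65.3) and 77.0% (67.5 to 84.8) once thinned.

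B cells gave the background of these shares. A UMI of the 6 mature genes was in 15.2% and 9.69% of B cells, or 6.32% and 5.36% once thinned, below the NK shares of both libraries. A UMI of the immature list was in 84.6% and 71.2% of B cells, or 56.7% and 48.5% once thinned, so the thinned NK share of RPR2 did not exceed that of B cells. Ltb, which B cells are known to make, was in 70.9% and 55.2% of them. With Ltb left out, an alternative chosen after the values were seen, the thinned shares were 20.1% and 18.7% in B cells and stayed at 46.9% and 77.0% in NK cells. For effector-memory T cells the share of the whole list was not computed. Single members were common in them once thinned, with Ctla2a in 42.3% and 41.6% and Ltb in 56.4% and 53.7%. A share counts cells with a UMI and not cells that express a gene.

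Both kinds of gene were often read in the same cell. In RPR2, 12 cells held mature genes only, 17 both, 4 immature only and 0 neither. In CRPR2 the counts were 12, 56, 32 and 3. Per 1000 UMIs, the median cell held 1.86 and 0.769 UMIs of the mature genes and 0.561 and 2.42 of the immature ones, with the highest immature values at 15.2 and 15.9.

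**Figure D4:**
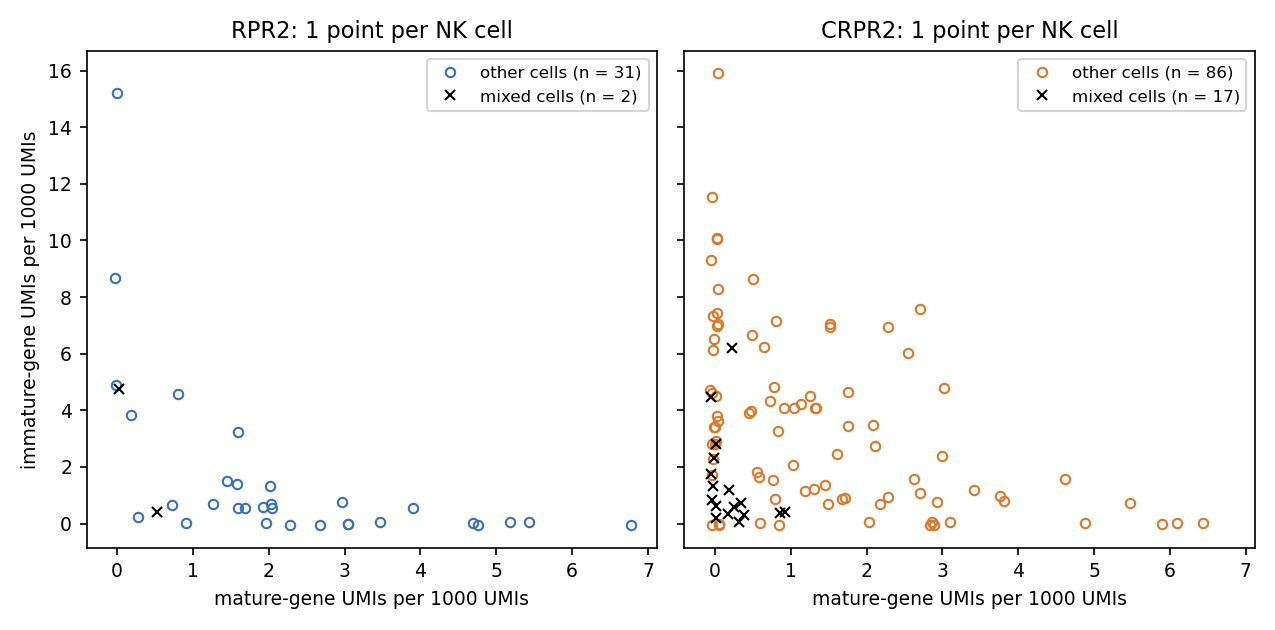
Each point is 1 NK cell, with its UMIs of the 6 mature genes (horizontal axis) and of the 13 immature genes (vertical axis) per 1000 UMIs of that cell, in RPR2 (left) and CRPR2 (right), crosses for mixed cells, with a small random offset so that equal values can be seen. In RPR2 only 4 cells have no mature-gene UMI and lie along the left edge, against 35 cells in CRPR2.

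Within each library Gzma, Ccl5 and Prf1 were higher in the class with mature genes. Gzma stood at 12767 CPM in RPR2 cells with mature genes and 218 CPM in the 4 cells without, a ratio of 58.5 (22.8 to 215), and at 10934 and 2187 CPM in CRPR2, a ratio of 5.0 (4.36 to 5.76). Ccl5 was 5.35-fold and 3.66-fold higher in the mature class, and Prf1 7.97-fold and 3.71-fold. Ifng was close between the classes, with ratios of 0.837 (0.327 to 2.53) and 0.933 (0.666 to 1.31), and Ccl3 had ratios of 1.58 (0.748 to 3.86) and 4.04 (2.87 to 5.80). In the other direction Ctla2a was 4.18-fold and 1.44-fold higher in cells without mature genes and Xcl1 5.32-fold and 1.72-fold. One of those 4 cells of RPR2 was mixed, so its values rest on very few cells.

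Set within the mature class, the difference in Gzma between libraries was small, with a ratio of 0.856 (0.791 to 0.928) that became 0.927 (0.853 to 1.01) without mixed cells. Prf1 had a ratio of 0.716 (0.550 to 0.934) there. Within the class the ratio of Ctla2a was 3.19 (2.07 to 5.14), that of Ccl3 2.17 (1.61 to 2.99), that of Ifng 2.03 (1.25 to 3.45) and that of Xcl1 1.73 (1.06 to 2.92). In cells without mature genes Gzma had the opposite direction, a ratio of 10.0 (3.86 to 37.1) resting on 4 UMIs in RPR2.

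Secreted signals were unevenly distributed. Of the list of cytokines and chemokines 7 of 15 were measured, 4 above and 3 below a ratio of 1, with a median log2 ratio of 0.30 (0.76 without mixed cells, and -0.32 when 1 UMI of the NK genes sufficed). Ifng, interferon gamma, stood at 284 CPM (27 UMIs, 12 cells) in RPR2 and 572 CPM (148 UMIs, 46 cells) in CRPR2, a ratio of 2.01 (1.33 to 3.16). Its ratio in effector-memory T cells was 0.536. Ccl3, an inflammatory chemokine, stood at 642 and 1033 CPM, a ratio of 1.61 (1.21 to 2.16), whereas its neighbour Ccl4 stood at 1284 and 1211, a ratio of 0.943. Thinned, Ifng was in 25.0% and 32.0% of cells.

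Receptors of target recognition were close between the libraries as a group. Of the activating receptors 17 of 20 were measured, 8 above and 9 below a ratio of 1, with a median log2 ratio of -0.05 (0.10 without mixed cells), and 3 at least 2-fold higher and 1 lower. Of the inhibitory receptors 9 of 24 were measured, 4 above and 5 below, with a median of -0.16 (0.09), and 1 was at least 2-fold higher and 1 lower. Klrk1 stood at 695 and 619 CPM and Klrd1 at 547 and 507. Among single members, Klrc2, an activating NKG2 chain, stood at 263 and 135 CPM, a ratio of 0.515 (0.299 to 0.897), and Slamf7, a receptor for homotypic contact, at 263 and 108, a ratio of 0.412 (0.231 to 0.736). Of the activating receptors 3 had an interval below 1 in all NK cells. Without mixed cells 1 of 16 had an interval below 1 and 1 above. The members at least 2-fold higher all rested on few UMIs in RPR2 and had intervals that include 1: Cd226 and Cd27 with 1 and 17 UMIs each, Cd160 with 3 and 18 and the inhibitory Ly49 gene Klra1 with 2 and 11. The inhibitory member that was lower, Lilrb4a, had 7 and 3 UMIs, a ratio of 0.158 (0.0263 to 0.690). The checkpoint receptors Tigit, Havcr2, Pdcd1 and Ctla4 were at 0 UMIs in both.

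The Ly49 genes shown above did not share a direction. Klra4 stood at 410 and 422 CPM, Klra9 at 463 and 344, Klra3 at 179 and 193 and Klra7 at 126 and 174. Klra8, which was used to choose the cells, stood at 526 and 460 CPM.

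The adaptors that carry these signals were near their levels in the other library. Of 20 adaptor and kinase genes 14 were measured, none 2-fold apart, with a median log2 ratio of -0.16 (0.16 without mixed cells). Tyrobp stood at 1905 and 2050 CPM, a ratio of 1.08, and Fcer1g had a ratio of 0.875.

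Transcription factors and migration genes lay near a ratio of 1 as groups. Of 24 transcription factors 20 were measured, 5 above and 15 below a ratio of 1, with a median log2 ratio of -0.12 (0.03 without mixed cells, where 9 of 16 were above 1). Zeb2 was the member at least 2-fold lower, and Ikzf3, a zinc finger factor of lymphocytes, the one at least 2-fold higher, with 3 and 25 UMIs and a ratio of 3.06 (0.935 to 15.8). Irf8, an interferon regulatory factor needed for NK maturation, stood at 516 and 491 CPM, Id2, which restrains E proteins, at 505 and 522, and Ets1 at 326 and 325. Of 24 migration and adhesion genes 19 were measured, none at least 2-fold apart, with a median of -0.12 (-0.06 without mixed cells). The nearest was Itga4, the alpha chain of the VLA-4 integrin, at 399.9 and 201 CPM, a ratio of 0.503 (0.325 to 0.785). Without mixed cells no measured migration or adhesion gene had an interval that excluded 1.

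Cytokine receptors leaned lower, with 11 of 20 measured, 3 above and 8 below a ratio of 1, and a median log2 ratio of -0.25 (-0.22 without mixed cells). Those at least 2-fold higher were Il10ra, a chain of the interleukin-10 receptor, with 0 and 12 UMIs, and Ifnar2, with 2 and 15. Ifnar1, the partner chain of Ifnar2 in the receptor for type I interferon, was the member at least 2-fold lower, with 9 UMIs in each and a ratio of 0.368 (0.129 to 1.05). Il18rap, a chain of the interleukin-18 receptor, stood at 358 and 205 CPM, a ratio of 0.573 (0.366 to 0.909), and Ifngr1, a chain of the interferon gamma receptor, at 453 and 290, a ratio of 0.641 (0.435 to 0.956). Il2rb, the shared chain for interleukin-2 and interleukin-15, stood at 432 and 356. Downstream, 9 of 16 genes of the Jak and Stat list were measured, 4 above and 5 below a ratio of 1. Their median log2 ratio was -0.0005 (0.34 without mixed cells). Stat3 stood at 221 and 101 CPM, a ratio of 0.455 (0.246 to 0.851). Its feedback inhibitor Socs3 stood at 63.1 and 162, a ratio of 2.57 (1.09 to 7.41). Without mixed cells no measured member of the list had an interval that excluded 1.

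Among the classical MHC class I genes H2-D1 was lower in CRPR2. It encodes a molecule that many Ly49 receptors bind and lies on chromosome 17 from 35262730 to 35267499. Its RNA stood at 4178 CPM (397 UMIs) in RPR2 and 1938 CPM (501 UMIs) in CRPR2, a ratio of 0.464 (0.406 to 0.530). Per 1000 UMIs the median cell held 5.15 and 2.08 UMIs of H2-D1. The difference was not particular to NK cells: the ratio was 0.445 in B cells, 0.440 in effector-memory T cells, 0.50 in myeloid cells, 0.578 in tumour cells and 0.661 in mature T cells. H2-K1, the other classical gene, stood at 1926 and 1628 CPM, a ratio of 0.845. These genes differ between mouse strains, and whether strain alters their counting was not tested.

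H2-Q6, a class Ib gene on chromosome 17 from 35424850 to 35430055, had 0 UMIs in RPR2 and 45 in CRPR2, in 32 cells, at least 5.51-fold higher against a floor of 3 UMIs over the RPR2 cells, with a lower bound of the exact interval of 4.30. Its near-identical neighbour H2-Q7, from 35439155 to 35443773, had 19 and 94 UMIs, a ratio of 1.82 (1.10 to 3.15). Reads of the pair can be split between them by the counting. In B cells the ratios of H2-Q6 and H2-Q7 were 0.907 and 0.928, and in effector-memory T cells 1.34 and 1.22.

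Among the other genes at the top of the ranking, most were carried by few cells. Igha, Jchain and Igkc, made by plasma cells, had 120 of 137, 59 of 69 and 380 of 411 UMIs in 1 cell of CRPR2. Cdca8 and Cenpf, which act in mitosis, had 37 of 44 and 35 of 47 UMIs in 1 cell, and neither had a UMI in CRPR2 without mixed cells. Cxcl13, a chemokine for B cells, had 2 UMIs in RPR2 and 56 in CRPR2, a ratio of 10.3 (2.72 to 87.1), with 1 UMI left in CRPR2 without mixed cells. The histone gene Hist1h1b had 1 and 32 UMIs, a ratio of 11.8 (2.0 to 479), or 6.61 (1.02 to 278) without mixed cells. Baz2b, a bromodomain gene, had 1 and 36, a ratio of 13.2 (2.23 to 537), and 0 and 8 UMIs without mixed cells.

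Hist1h2bc, a histone gene whose RNA can carry a poly(A) tail outside S phase, was spread over many cells. It was seen in 4 of 33 and 44 of 103 cells and stood at 52.6 and 658 CPM, a ratio of 12.5 (5.25 to 39.0), or 10.0 (3.79 to 37.6) without mixed cells. In other cells the ratio of Hist1h2bc was 2.47 in effector-memory T, 1.78 in myeloid, 1.51 in tumour, 1.21 in B and 0.952 in mature T cells.

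At the bottom of the ranking Xist, with 92 UMIs and 0, was at least 83.4-fold lower against a floor of 3 UMIs over the CRPR2 cells, with a bound of the exact interval of 66.5. Mgst1, Cst6, Cbr2 and Dcn had 35 of 35, 47 of 47, 18 of 18 and 22 of 23 of their RPR2 UMIs in 1 cell. Among genes spread over more cells, S100a4, a calcium-binding protein of migrating cells, stood at 421 and 128 CPM in 10 and 16 cells, a ratio of 0.303 (0.185 to 0.493), against 1.05 in effector-memory T cells, which its RNA helped to choose. Epsti1, an interferon-induced gene, stood at 284 and 92.8 CPM, a ratio of 0.327 (0.180 to 0.588). Aurkaip1, with 19 and 21 UMIs, had a ratio of 0.406 (0.208 to 0.799). Cited2, a transcriptional coregulator, had a ratio of 0.368 (0.210 to 0.644), or 0.606 without mixed cells.

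Among programmes shared with other cells, the cell-cycle list depended most on the mixed cells. The part that mixed cells play in the other differences was not tested beyond leaving them out. The cell-cycle list had 13 of 18 measured members and a median log2 ratio of 1.61, but summed to 1547 and 3365 CPM with mixed cells and 1124 and 1165 CPM without, where 4 members were measured with a median of -0.01. Stress genes, which dissociation is known to induce, summed to 20975 and 23486 CPM, with a median of 0.15 over 21 members. The medians were 0.11 for 18 respiratory-chain genes, 0.04 for 11 genes of glycolysis, -0.20 for 20 actin genes and 0.18 for 12 interferon-induced genes. Without mixed cells the glycolysis median was 0.29, and that of the interferon-induced genes 0.97 over the 5 members still measured.

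**Figure D5:**
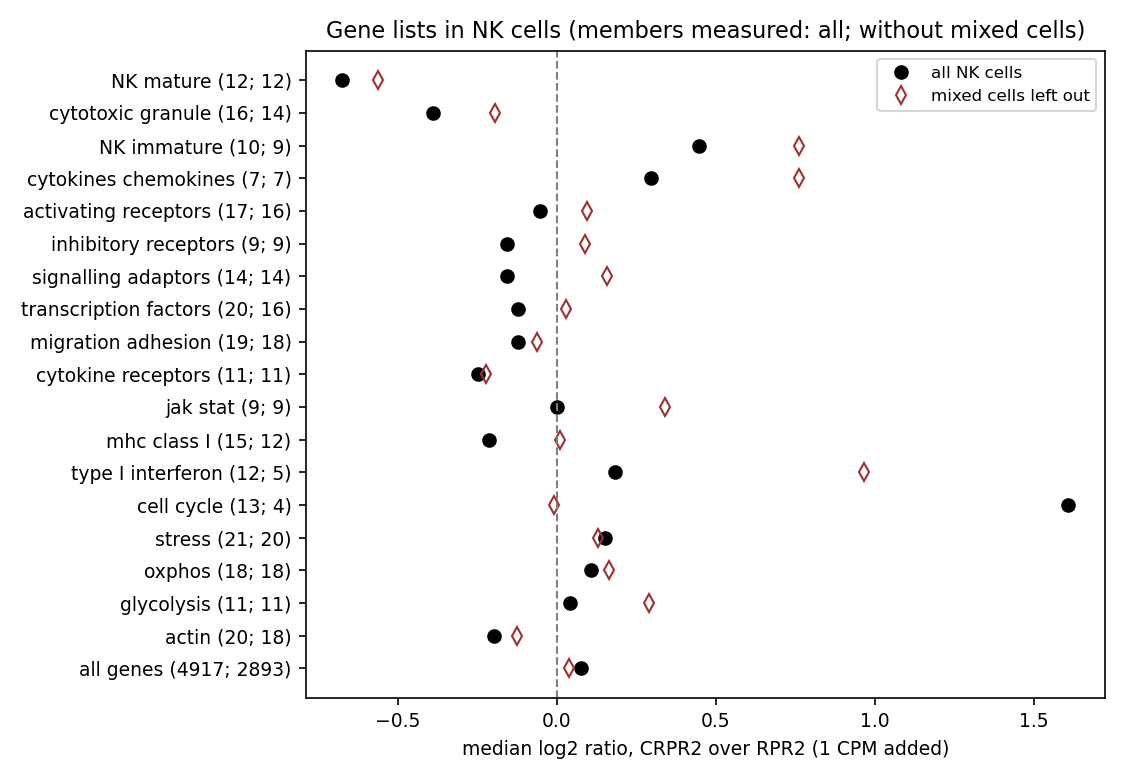
Median log2 ratio of CRPR2 over RPR2 in NK cells (horizontal axis, 1 CPM added) for 18 gene lists and all genes (rows), black circles for all NK cells and red diamonds with mixed cells left out; the numbers in brackets are the members measured each way. Of the lists drawn, the mature list lies lowest in all NK cells, at -0.67, and the cell-cycle circle highest, at 1.61, with its diamond at -0.01. Marker lists of other cell types are not drawn, and some lie further out, such as -0.93 for stromal and 4.89 for B and plasma cells.

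Set beside effector-memory T cells, the NK cells showed what the rule had not named. The T cells, 224 in RPR2 and 305 in CRPR2, had at least 2 UMIs of Cd3e, Cd3g and Trac, none of the thymocyte genes and at least 2 of S100a4, Cxcr3 and Cxcr6, with medians of 2879 and 2115 UMIs. Since genes chose both kinds of cell, the differences are a description. By size alone, NK cells of RPR2 had 308 of 4355 genes (7.07%) higher by a factor of 2 or more and 701 (16.1%) lower by as much. In CRPR2 420 of 5611 (7.49%) were higher and 613 (10.9%) lower. Leaving out mixed cells of both kinds gave 257 of 3244 (7.92%) higher and 635 (19.6%) lower in RPR2, and 268 of 3598 (7.45%) higher and 504 (14%) lower in CRPR2.

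Cma1 had no UMI in the T cells of either library. It stood at 379 CPM against 0 in RPR2 and 232 against 0 in CRPR2, at least 111-fold and at least 84.9-fold higher against a floor of 3 UMIs over the T cells, with lower bounds of the exact intervals of 85.7 and 67.0. Gzma was 115-fold and 45.8-fold higher, Prf1 52.9-fold and 89.2-fold, Tyrobp 558-fold and 86.6-fold, and Irf8 45.3-fold and 77.1-fold, or 96.2-fold and 137-fold without mixed cells. Lat2, a membrane adaptor, was 39.3-fold and 29.7-fold higher. The leading 15 genes also included Fcer1g and the receptor genes Klri2, Klra3, Klrb1a, Klra7, Klra9, Klrb1b, Klrb1f and Klra4. Of the 15, 8 lay in the NK gene complex. The 15 were taken among genes at 100 CPM or more in NK cells, with no such minimum in T cells. T cells with a UMI of Ncr1, Klrb1c, Klre1 or Klra8 had also been left out. The count of 8 and the folds depend on these choices, and no share over all genes was computed beside them.

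Some chemokine and cytokine genes were also higher in NK cells, but their list was split. In RPR2 10 members were measured, 5 at least 2-fold higher in NK cells and 3 lower. In CRPR2 11 were measured, 5 higher and 4 lower. Ccl5 was 7.53-fold and 9.15-fold higher in NK cells, and the granule gene Nkg7 5.90-fold and 6.84-fold. Ifng was 2.23-fold higher in RPR2 and 8.38-fold in CRPR2, and Ccl3 3.38-fold and 59.7-fold. Lower in NK cells were Il7r, the receptor chain for interleukin-7, at 21.0 CPM against 586 in RPR2 and 7.74 against 466 in CRPR2, and Cd3d, at 42.1 against 722 and 7.74 against 539. Il17a, which encodes a cytokine of other lymphocytes, was at 0 in NK cells of both libraries, against 553 and 135 CPM in the T cells.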

How the data were processed

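RNA of single cells was counted in 4 mouse libraries, of which RPR2 and CRPR2 are described here and preSC_WT and preSC_CracdKO, allografts of the preSC line, enter only the closing section. The deposited matrices hold raw UMI counts in whole numbers, made by the authors with Cell Ranger (version 6.1.2 in the lung, 5.0.0 in the allografts, per the file headers). The submitters' processing notes also name Seurat 1.8.2, Scanpy 1.8.2 and build mm10. For the annotation release and the cell-calling rule, a statement is not given in the sources used here. Sequences and positions came from GENCODE vM21 on GRCm38, the same build.

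Counts were summed over the NK cells of each library and scaled to CPM. Intervals are at 95%: exact Poisson for a sum, exact conditional binomial for a ratio of 2 sums, Clopper-Pearson for a share, and by the log standard error for a ratio of 2 shares. A gene counted as higher or lower at a factor of 2 with 30 UMIs over both libraries, and list medians took members with 10 UMIs, after adding 1 CPM. With 1 library per group no test was run and no p-value computed. Doublets were kept; Scrublet in scanpy 1.11.5 was an alternative. It marked 271 cells of RPR2 (2.97%) by its own threshold and 0 of CRPR2, where the 1145 highest scores (9.57%) were removed instead, which took away 1 and 12 NK cells, 1 and 11 of them mixed. Shares were also computed after thinning to 1000 UMIs with seed 1.

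Comparison cells had no UMI of the 4 NK genes, except the B cells behind the shares of cells with a UMI. T cells had 2 UMIs of Cd3e, Cd3g and Trac, and mature T cells in addition none of Rag1, Rag2, Dntt and Ptcra. B cells had 2 UMIs of Cd79a, Ms4a1 and Cd79b, myeloid cells 5 of Lyz2, and tumour cells 5 of neuroendocrine genes with none of Ptprc; genes of the other types were excluded. Genes named were those of the rule, of 35 lists, the 10 highest and 10 lowest ratios and the 15 leading NK over T-cell ratios. Those 15 were taken among genes at 100 CPM or more in NK cells. The cells and lists were chosen with earlier results of these data known. Scripts ran in Python 3.11.15 with numpy 2.4.6, scipy 1.17.1, pandas 2.3.3 and matplotlib 3.10.9, and were checked on simulated counts.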

Additional observations from a re-analysis of the deposited data

Results flagged for a closer look

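The rule for NK cells also found cells in the allografts grown from the preSC line, libraries that the comparisons above do not use. In preSC_WT it found 96 of 18468 kept cells (0.520%, exact interval 0.421 to 0.634), and in preSC_CracdKO 7 of 16137 (0.0434%, 0.0174 to 0.0894). Among Ptprc-expressing cells without thymocyte genes the shares were 79 of 2208 (3.58%) and 6 of 177 (3.39%). Of the 96 cells, 12 were mixed, and the median was 1333 UMIs, against 1060 in the 7 cells.

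The cells of preSC_WT carried NK receptor and effector RNA. Ncr1 was seen in 60 of 96 cells, Ccl5 in 89, Gzma in 71 at 4039 CPM and Prf1 in 32 at 258 CPM. A UMI of the 6 mature genes was in 32 of 96 cells, and Cma1 in 3. In preSC_CracdKO, 5 of 7 cells carried Gzma and 7 of 7 Ccl5, too few for a comparison. The lung and allograft libraries were counted with different Cell Ranger versions and differ in tissue and host, which cannot be told apart.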

How the results depend on the processing

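No paired analysis was possible because each group held 1 library. The ratio of NK shares kept its direction under all 10 alternatives, from 2.12 without mixed cells to 3.00 among Ptprc-expressing cells. The counts of genes depended on the minimum and on mixed cells. Against 126 NK genes 2-fold higher in CRPR2, the count was 269 with a threshold of 1 UMI of the NK genes, 73 with 3 UMIs, 79 with Ncr1 and Klre1 alone, 28 with no UMI of 7 tumour, B-cell and myeloid genes, 81 without doublets, 39 without mixed cells, 4349 with no minimum of UMIs, 26 with a minimum of 60 and 29 thinned. Against 34 NK genes 2-fold lower in CRPR2, the count was 64 with 1 UMI, 19 with none of those 7 genes, 18 without mixed cells, 22 with median-of-ratios scaling, 2265 with no minimum, 7 with 60 UMIs, 59 from the mean of per-cell CPM and 14 thinned. Median-of-ratios scaling shifted every log2 ratio by 0.10.

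Of 285 list medians under alternatives, 270 stayed within the limit, 12 moved and 3, in the immature and cell-cycle lists, reversed; small medians that crossed 0 are counted among the others. The immature list gave -0.19 with 1 UMI, -0.12 with 60 UMIs, 1.06 per cell and 1.5 thinned, and its direction is therefore not firm. The list of cytokines and chemokines also changed sign, to -0.32 with 1 UMI and -0.25 with no minimum. The cell-cycle list gave 0.46 with 3 UMIs, 0.84 with Ncr1 and Klre1, 0.25 with none of the 7 genes, -0.0075 without mixed cells, 0.84 with 60 UMIs and 0.79 thinned. Of 706 ratios of single genes, 634 stayed, 68 moved and 4, all of genes counted as 2-fold apart, reversed: Cbr2 to 1.44 per cell, Dcn to 3.68 without the top cells, and Cenpf to 0.821 with 3 UMIs and to 0 without mixed cells. Counting ratios near 1 as well, 68 of the 706 lay on the other side of 1, 12 of them in cells without mature genes, where Gzma was 10.0, Prf1 1.54, Ccl5 1.28, Nkg7 1.20 and Ccl3 0.853. The median of the interferon-induced genes, over few members, moved to 6.51 with none of the 7 genes, 6.66 thinned and -0.48 with 60 UMIs. Against effector-memory T cells of CRPR2, 268 genes were higher without mixed cells. The cause was not tested. Depth limits genes below 30 UMIs, and 33 cells of RPR2 limit every per-cell share.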

Other observations

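Ligands that NK cells read on tumour cells were measured in the tumour cells of the same libraries, 2768 in RPR2 and 6834 in CRPR2. Ulbp1, a ligand of the activating receptor NKG2D, stood at 26.8 and 19.1 CPM, a ratio of CRPR2 over RPR2 of 0.711 (0.635 to 0.797). The related ligands Raet1e, Raet1d and H60b had at most 16 UMIs in either library. Clec2d, which engages an inhibitory receptor of the Klrb1 family, stood at 10.8 and 22.3 CPM, a ratio of 2.06 (1.78 to 2.40).

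Pvr, a ligand of Cd226 and Tigit, stood at 1.23 and 2.61 CPM, a ratio of 2.13 (1.36 to 3.43), while Nectin2, which binds the same receptors, stood at 59.6 and 60.6. H2-T23, which presents peptides to the inhibitory NKG2A receptor, stood at 63.4 and 90.8 CPM, a ratio of 1.43 (1.34 to 1.53). Cdh1, a ligand of Klrg1, stood at 277 and 280 CPM. On the NK cells, Cd226 had 1 and 17 UMIs and Tigit 0 in both. Each value is from 1 library, and no relation between ligand and NK cell was tested.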
